A study of Homo sapiens with 6 samples.

Results

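Small nucleolar RNA host genes are long non-coding genes whose introns carry small nucleolar RNAs (snoRNAs). They were taken as every row of the deposited count table whose symbol is SNHG followed by digits, together with GAS5, DANCR and ZFAS1, which gave 30 of the 37923 genes. The 6 libraries came from cells labelled RKO, a human colorectal carcinoma line. The group named ENZ (3 libraries) was treated with compound A3, described as a degrader of the histone demethylase LSD1, and its RNA was taken at 48 h. The group named Control (3 libraries) is described only as a control. Its vehicle, the dose of A3 and the meaning of the name ENZ are not stated there. The design calls the 3 libraries of a group biological replicates without saying what separated them, so the p-values rest on the spread between libraries, which may be technical.

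The RNA product of a host gene is spliced, and the snoRNA is trimmed from the excised intron and enters a ribonucleoprotein. Box C/D snoRNAs guide 2′-O-methylation and box H/ACA snoRNAs guide pseudouridylation, mostly of ribosomal RNA, while small Cajal body RNAs (scaRNAs) guide the same modifications on spliceosomal RNAs. Many spliced host RNAs begin with a 5′ terminal oligopyrimidine (TOP) tract like that of ribosomal protein mRNAs, and several, GAS5 among them, are translated over short reading frames and removed by nonsense-mediated decay. The count of a host gene is therefore the level of its polyadenylated RNA and not that of the snoRNAs it releases.

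Libraries held 26756840 to 30025543 counts in the ENZ group and 26691289 to 28207612 in the Control group. Levels are given as CPM, counts scaled to a library total of 1000000 after adjustment with TMM factors, and 3 counts in a library corresponded to 0.1005 to 0.1137 CPM. The libraries did not carry the defining genes of colon epithelium: 6 of the 9 such genes measured were under 1 CPM, with CDX1 at no more than 0.0379 and KRT20 at no more than 0.0366 CPM in any library. Of 12 prostate luminal genes 9 were over 10 CPM. FOLH1, which encodes prostate-specific membrane antigen, averaged 868 CPM in ENZ libraries and 619 CPM in Control libraries, and HOXB13, a prostate homeobox factor, averaged 196 CPM in ENZ libraries and 155 CPM in Control libraries. The cells are therefore called here by their label only. Summed leukocyte genes reached 1.97 CPM at most and endothelial genes 0.152 CPM, and 4 fibroblast genes summed to 11.7 to 13.7 CPM in ENZ libraries and 12.8 to 14.7 CPM in Control libraries, most of it COL1A1. In such bulk RNA fewer cells of a kind and less RNA per cell cannot be told apart. KDM1A, which encodes LSD1, stood at 110 ± 3.98 CPM in ENZ libraries and 111 ± 1.87 CPM in Control libraries (SD, n = 3 each), a log2 fold change of -0.02 with a 95% interval of -0.11 to 0.06, and an RNA level does not measure loss of the protein.

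All 30 genes were found in GENCODE release 44 (GRCh38), and 29 of them held at least 1 annotated snoRNA or scaRNA in their span, 150 in all, of which 84 lie in SNHG14. SNHG28 held none. The small RNAs shown next are 1 from each of 7 host genes whose level differed between the groups, so that the kinds of cargo can be compared. They are written 5′ to 3′ as DNA on the strand of the gene. Capitals mark boxes: TGATGA and the last CTGA in the C/D RNAs, the ACA near the 3′ end in the H/ACA RNA and in the scaRNAs, and each TGAG, the letters of a Cajal body box, that a search found in a scaRNA.
SNORD44 in GAS5, chr1:173865968-173866028, minus strand: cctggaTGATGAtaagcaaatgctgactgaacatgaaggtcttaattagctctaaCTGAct
SNORD48 in SNHG32, chr6:31835263-31835326, plus strand: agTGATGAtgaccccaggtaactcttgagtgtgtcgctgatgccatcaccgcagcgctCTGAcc
SNORD49A in SNHG29, chr17:16440036-16440106, plus strand: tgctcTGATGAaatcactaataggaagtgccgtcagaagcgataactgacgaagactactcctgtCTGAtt
SNORA26 in DANCR, chr4:52713249-52713370, plus strand: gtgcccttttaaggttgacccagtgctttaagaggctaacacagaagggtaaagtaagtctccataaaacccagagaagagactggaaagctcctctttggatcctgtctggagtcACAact
SCARNA13 in SNHG10, chr14:95533355-95533629, minus strand: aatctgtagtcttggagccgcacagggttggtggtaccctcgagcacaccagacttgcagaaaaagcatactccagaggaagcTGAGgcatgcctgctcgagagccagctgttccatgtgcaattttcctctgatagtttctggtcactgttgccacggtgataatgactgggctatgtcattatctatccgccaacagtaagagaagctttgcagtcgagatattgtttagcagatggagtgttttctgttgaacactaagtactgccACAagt
SCARNA15 in SNHG21, chr15:82755945-82756071, plus strand: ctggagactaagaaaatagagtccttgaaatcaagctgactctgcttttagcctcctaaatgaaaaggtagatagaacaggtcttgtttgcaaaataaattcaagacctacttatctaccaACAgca
SCARNA16 in SNHG20, chr17:77089307-77089493, plus strand: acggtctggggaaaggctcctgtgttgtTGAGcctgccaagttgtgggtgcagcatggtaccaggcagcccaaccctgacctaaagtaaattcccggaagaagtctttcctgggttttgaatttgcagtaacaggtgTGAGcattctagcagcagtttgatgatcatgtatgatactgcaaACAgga
The first 3 are short C/D RNAs of 61 to 71 bases from hosts whose RNA was higher in ENZ libraries. The other 4 carry an ACA box, are 122 to 275 bases long and come from hosts whose RNA was lower. No TGAG was found in SCARNA15. These examples do not stand for their classes: the H/ACA hosts SNHG7 and SNHG8 were higher, and the C/D hosts SNHG26, SNHG30 and SNHG14 were lower.

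The starts of the host genes were compared next because TOP transcripts begin at a C within a run of pyrimidines. The RefSeq promoter table (GRCh38.p14) held 26 of the 30 genes. Each window is 50 bases long, 15 before the annotated start and 35 from the start on, so that base 16 is the first transcribed base, and capitals mark the longest unbroken run of C and T.
SNHG4, chr5:139274086-139274135, plus strand: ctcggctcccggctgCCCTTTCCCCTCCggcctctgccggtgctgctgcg
SNHG12, chr1:28581839-28581888, minus strand: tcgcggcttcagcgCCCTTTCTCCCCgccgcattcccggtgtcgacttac
SNHG32, chr6:31834901-31834950, plus strand: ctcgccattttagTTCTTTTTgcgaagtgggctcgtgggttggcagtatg
ZFAS1, chr20:49278627-49278676, plus strand: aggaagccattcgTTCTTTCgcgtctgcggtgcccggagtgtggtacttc
SNHG7, chr9:136728150-136728199, minus strand: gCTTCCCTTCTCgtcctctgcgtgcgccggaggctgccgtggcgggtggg
SNHG20, chr17:77088628-77088677, plus strand: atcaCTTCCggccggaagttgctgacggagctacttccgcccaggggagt
SNHG10, chr14:95534838-95534887, minus strand: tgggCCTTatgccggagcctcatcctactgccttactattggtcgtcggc
A C at the first base with at least 5 pyrimidines in a row from it was found in 6 of the 22 tested host genes with a window, which is 27.3%, against 5.13% of the 12135 promoters of all tested genes and 4.04% of all 27305 promoters. The run was 13 bases long in SNHG4, 11 in SNHG12, 6 in SNHG32 and in SNHG19, and 5 in ZFAS1 and in SNHG5. SNHG20 and SNHG10 start with A in this table. The capitals in the windows of SNHG7, SNHG20 and SNHG10 lie before the annotated start and so outside the transcript. From its first base SNHG7 has a run of 4, so it is not among the 6. The RefSeq start of GAS5 lies at 173869045, outside its GENCODE span of chr1:173858559-173868882 on the minus strand, and its window begins transcription at an A, so the table may not hold the start that these cells use. The RefSeq starts of SNHG14, SNHG3 and SNHG4 also lie outside the GENCODE spans of these genes, that of SNHG4 by 1 base.

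Of the 30 host genes 25 passed the expression filter. In edgeR's quasi-likelihood test 16 of these 25 (64.0%) differed between ENZ and Control libraries at an adjusted p under 0.05, against 39.8% of all 18581 genes tested. In ENZ libraries 6 were higher (24.0%, against 20.5% of all genes) and 10 were lower (40.0%, against 19.3% of all genes). The host genes thus moved both ways. Their log2 fold changes (ENZ over Control) ran from -0.78 to 0.34, none passed 1 in size, and 12 of the 16 were under 0.5. Small moves were usual in the whole table, where 5314 of the 7393 called genes were under 0.5 in size and 553 passed 1. The median was -0.04 over the 25 host genes and -0.01 over all genes. The split of calls over all genes depends on scaling. There were 3814 higher and 3579 lower genes with TMM factors, 3097 and 4104 with library totals alone, and 4846 and 3116 with offsets for GC content and length, under which the host genes divided into 6 and 11, and 7 and 7.

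**Figure D1:**
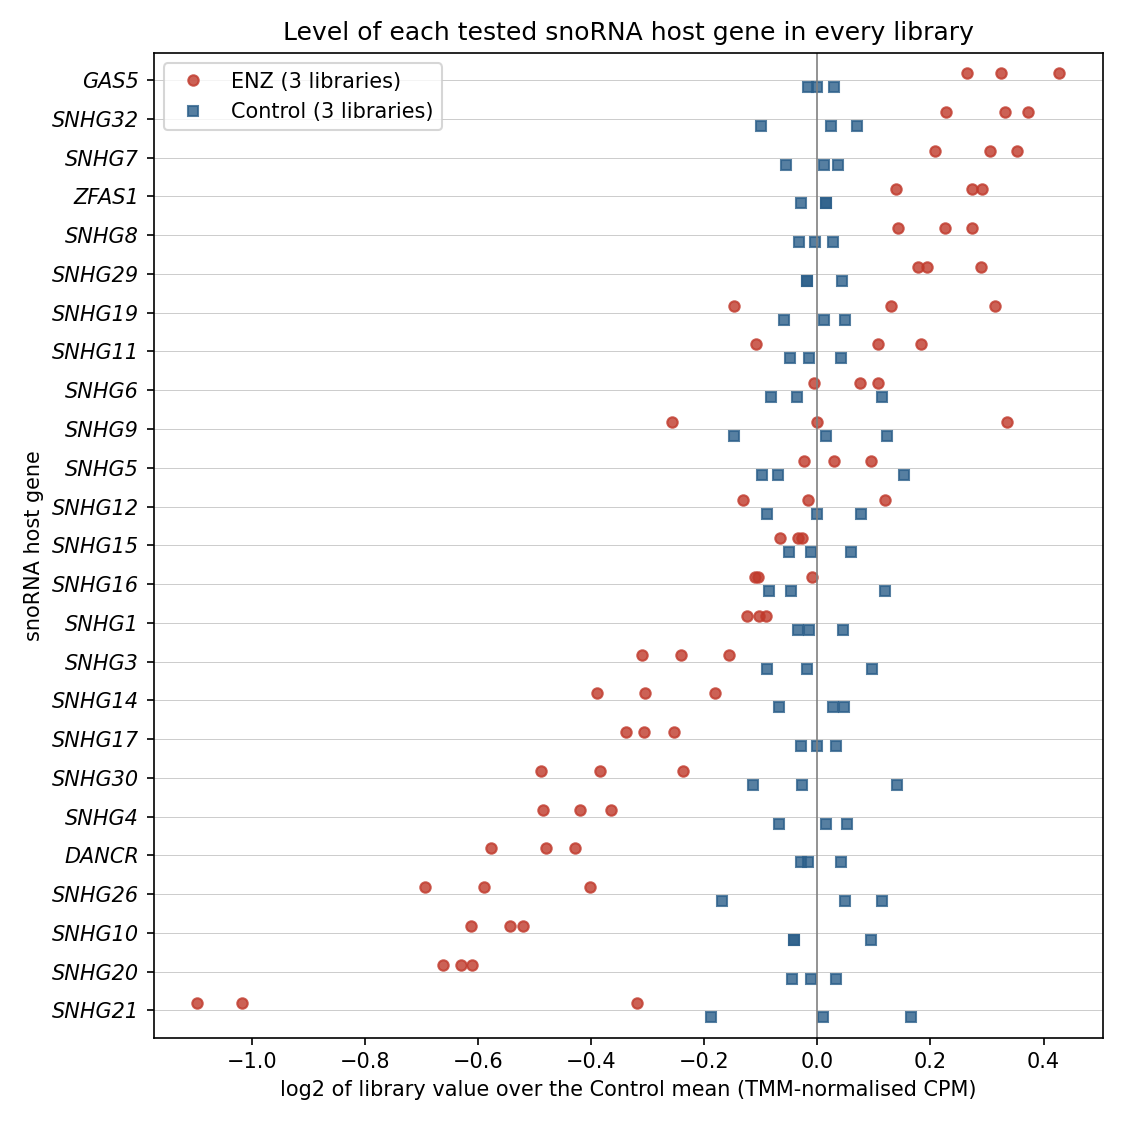
Level of each of the 25 tested snoRNA host genes in every library, as the log2 of the library's TMM-normalised CPM over the Control mean of that gene (circles, 3 ENZ libraries; squares, 3 Control libraries; genes ordered by fold change). The ENZ circles lie to the right of the Control squares for the 6 genes at the top. They lie to the left of them for SNHG1 and the 10 genes at the bottom. How often the groups separate over all genes was not counted, so this separation is a description only. The ENZ circles of SNHG21 are the most widely spread.

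GAS5, named for its accumulation in growth-arrested cells and known to bind the glucocorticoid receptor, was the most abundant host RNA. It had 299, 312 and 335 CPM in the ENZ libraries, against 246, 254 and 249 CPM in the Control libraries. All 3 ENZ values lay above all 3 Control values. The means were 315 ± 18.4 CPM in ENZ libraries and 249 ± 3.97 CPM in Control libraries (SD, n = 3 each), a log2 fold change of 0.34 ± 0.04 (SE, adjusted p = 7.25e-07 in edgeR's test), or 26.5% more. GAS5 carries 10 C/D snoRNAs and 1 H/ACA RNA, the largest number outside SNHG14.

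SNHG29, host of SNORD49A, SNORD49B and SNORD65, was second in abundance with 259, 262 and 280 CPM in ENZ libraries, against 226, 226 and 236 CPM in Control libraries. The groups did not overlap. The log2 fold change was 0.22 ± 0.04 (SE, adjusted p = 9.34e-05 in edgeR's test). SNHG7, which carries 2 H/ACA snoRNAs, had 57.9, 64.0 and 61.9 CPM in ENZ libraries, against 50.5, 51.4 and 48.2 CPM in Control libraries, again without overlap. Its log2 fold change was 0.29 ± 0.05 (SE, adjusted p = 0.000118 in edgeR's test), and it was 0.11 (adjusted p = 0.0417) when offsets for GC content and length were used.

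The other 3 hosts with a higher level were of medium abundance. SNHG32, host of the SNORD48 shown above and of SNORD52, had 37.5, 34.9 and 38.6 CPM in ENZ libraries, against 31.3, 30.3 and 27.8 CPM in Control libraries, a log2 fold change of 0.31 ± 0.06 (SE, adjusted p = 0.000345 in edgeR's test). ZFAS1, whose gene lies beside ZNFX1 and carries 3 C/D snoRNAs, had 24.1, 23.8 and 21.7 CPM in ENZ libraries, against 19.9, 19.9 and 19.3 CPM in Control libraries, a log2 fold change of 0.24 ± 0.07 (SE, adjusted p = 0.00801 in edgeR's test). SNHG8, host of a single H/ACA RNA, had 39.1, 41.4 and 42.8 CPM in ENZ libraries, against 36.1, 34.6 and 35.3 CPM in Control libraries, a log2 fold change of 0.22 ± 0.06 (SE, adjusted p = 0.00335 in edgeR's test). In each of the 3 the lowest ENZ library stood above the highest Control library. On log2(FPKM + 1) with limma, ZFAS1 was not called (adjusted p = 0.0617), and SNHG8 was not called there when no filter was used (adjusted p = 0.0675).

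Among the hosts with a lower level, DANCR, known from human epidermis for keeping progenitor cells undifferentiated, was the one with the smallest p. It had 47.4, 50.7 and 52.5 CPM in ENZ libraries, against 69.9, 72.8 and 69.3 CPM in Control libraries, so that the groups were well apart. The means were 50.2 ± 2.57 CPM in ENZ libraries and 70.7 ± 1.89 CPM in Control libraries (SD, n = 3 each). The log2 fold change was -0.49 ± 0.05 (SE, adjusted p = 8.67e-08 in edgeR's test), a fall of 29.0 percent. SNHG4, host of 2 H/ACA RNAs at the MATR3 locus and the gene with the longest TOP-like run above, had 37.5, 34.5 and 36.1 CPM in ENZ libraries, against 50.1, 48.8 and 46.1 CPM in Control libraries. No ENZ value reached the Control range, and the log2 fold change was -0.42 ± 0.05 (SE, adjusted p = 2.54e-06 in edgeR's test).

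SNHG20, host of SCARNA16, had 8.64, 8.34 and 8.53 CPM in ENZ libraries, against 12.8, 13.5 and 13.1 CPM in Control libraries. The spread within each group was far smaller than the gap between them, and the log2 fold change was -0.63 ± 0.08 (SE, adjusted p = 3.39e-06 in edgeR's test). SNHG10, host of SCARNA13, had 6.8, 7.13 and 7.25 CPM in ENZ libraries, against 10.1, 11.1 and 10.1 CPM in Control libraries, also without overlap. Its log2 fold change was -0.56 ± 0.09 (SE, adjusted p = 4.86e-05 in edgeR's test). SNHG21, host of SCARNA15, was a weak gene with 0.77, 1.25 and 0.729 CPM in ENZ libraries, from 21 to 33 counts each, against 1.75, 1.57 and 1.37 CPM in Control libraries, from 37 to 50 counts each. The groups did not overlap, but the second ENZ library was close to the Control range. The log2 fold change was -0.78 ± 0.25 (SE, adjusted p = 0.0149 in edgeR's test), with a 95% interval of -1.3 to -0.27. The SNHG21 call was lost without ENZ replicate 3 (adjusted p = 0.066), without Control replicate 1 (adjusted p = 0.0683) and with GC and length offsets (adjusted p = 0.0504).

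SNHG26, host of a C/D RNA, had 2.01, 2.16 and 2.46 CPM in ENZ libraries, against 3.36, 2.89 and 3.52 CPM in Control libraries. The highest ENZ value was below the lowest Control value, and the log2 fold change was -0.56 ± 0.16 (SE, adjusted p = 0.00732 in edgeR's test). On unfiltered log2(FPKM + 1), where low genes are compressed, it was -0.18 and not called (adjusted p = 0.117, limma). SNHG17, which carries 5 H/ACA RNAs of the SNORA71 family, averaged 24.1 ± 0.7 CPM in ENZ libraries and 29.7 ± 0.615 CPM in Control libraries (SD, n = 3 each), a log2 fold change of -0.30 (adjusted p = 0.00039 in edgeR's test). SNHG3, host of SNORA73A and SNORA73B, which take part in cleavage of the ribosomal precursor RNA, averaged 19.8 ± 1.03 CPM in ENZ libraries and 23.3 ± 1.52 CPM in Control libraries (SD, n = 3 each), a log2 fold change of -0.24 (adjusted p = 0.0104 in edgeR's test). Without Control replicate 2 the SNHG3 call was lost (adjusted p = 0.0698). SNHG30, host of a C/D RNA, averaged 8.38 ± 0.737 CPM in ENZ libraries and 10.8 ± 0.97 CPM in Control libraries (SD, n = 3 each), a log2 fold change of -0.37 (adjusted p = 0.00429 in edgeR's test), which became -0.18 (adjusted p = 0.129) with GC and length offsets.

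SNHG14 is the very long imprinted transcript of the Prader-Willi region on chromosome 15 that carries the repeated SNORD115 and SNORD116 genes and runs antisense to UBE3A. It had 134, 123 and 116 CPM in ENZ libraries, against 157, 145 and 155 CPM in Control libraries, with every ENZ value below every Control value. The log2 fold change was -0.29 ± 0.05 (SE, adjusted p = 9.2e-05 in edgeR's test). SNHG14 had the lowest GC content (37.5%) and the longest exon sequence (122609 bases) of the tested host genes. With GC and length offsets its log2 fold change turned to 0.03 (adjusted p = 0.458). The shares of GC content and of length in that shift were not separated. On the FPKM scale it was not called either (adjusted p = 0.0599 on log2(FPKM + 1), limma).

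Another 9 tested hosts were not called. SNHG1, host of SNORD22 and SNORD25 to SNORD31, had 56.8, 55.5 and 56.3 CPM in ENZ libraries, against 59.1, 59.9 and 62.4 CPM in Control libraries. The groups did not overlap, yet the log2 fold change of -0.11 had a 95% interval of -0.20 to -0.01 and missed the threshold after adjustment (adjusted p = 0.0816 in edgeR's test). With library totals alone in place of TMM factors SNHG1 was called lower (adjusted p = 0.0216), and with GC and length offsets its log2 fold change was 0.01. SNHG6, a C/D host on chromosome 8, had 44.9, 48.6 and 47.5 CPM in ENZ libraries, against 42.6, 48.8 and 44.0 CPM in Control libraries, which overlap. Its log2 fold change was 0.06 (95% interval -0.06 to 0.18), and 0.25 (adjusted p = 0.00251) with GC and length offsets.

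Log2 fold changes of the other 7 were -0.07 for SNHG16, -0.04 for SNHG15, 0.00 for SNHG12, 0.03 for SNHG5, 0.05 for SNHG9, 0.08 for SNHG11 and 0.11 for SNHG19, and their groups overlapped. The intervals set how much could have been missed. For SNHG15 the 95% interval was -0.15 to 0.07 and for SNHG12 it was -0.16 to 0.16, while for SNHG9, at 17 to 28 counts per library, it was -0.54 to 0.64. SNHG5, a C/D host with 4.37 ± 0.179 CPM in ENZ libraries and 4.27 ± 0.42 CPM in Control libraries (SD, n = 3 each), had an interval of -0.23 to 0.29.

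The 5 hosts that did not pass the filter were near the limit of detection. SNHG22, host of SCARNA17, had 2 to 4 counts in ENZ libraries and 5 to 14 in Control libraries, and it was called when no filter was used (adjusted p = 0.0406 in edgeR's test). SNHG25 had 4 to 8 counts in ENZ libraries and 2 to 8 in Control libraries. SNHG31 had 0 to 4 counts in ENZ libraries and 1 to 5 in Control libraries. SNHG27 reached 2 counts at most and SNHG28 a single count, so a difference in them was not detectable at this depth.

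**Figure D2:**
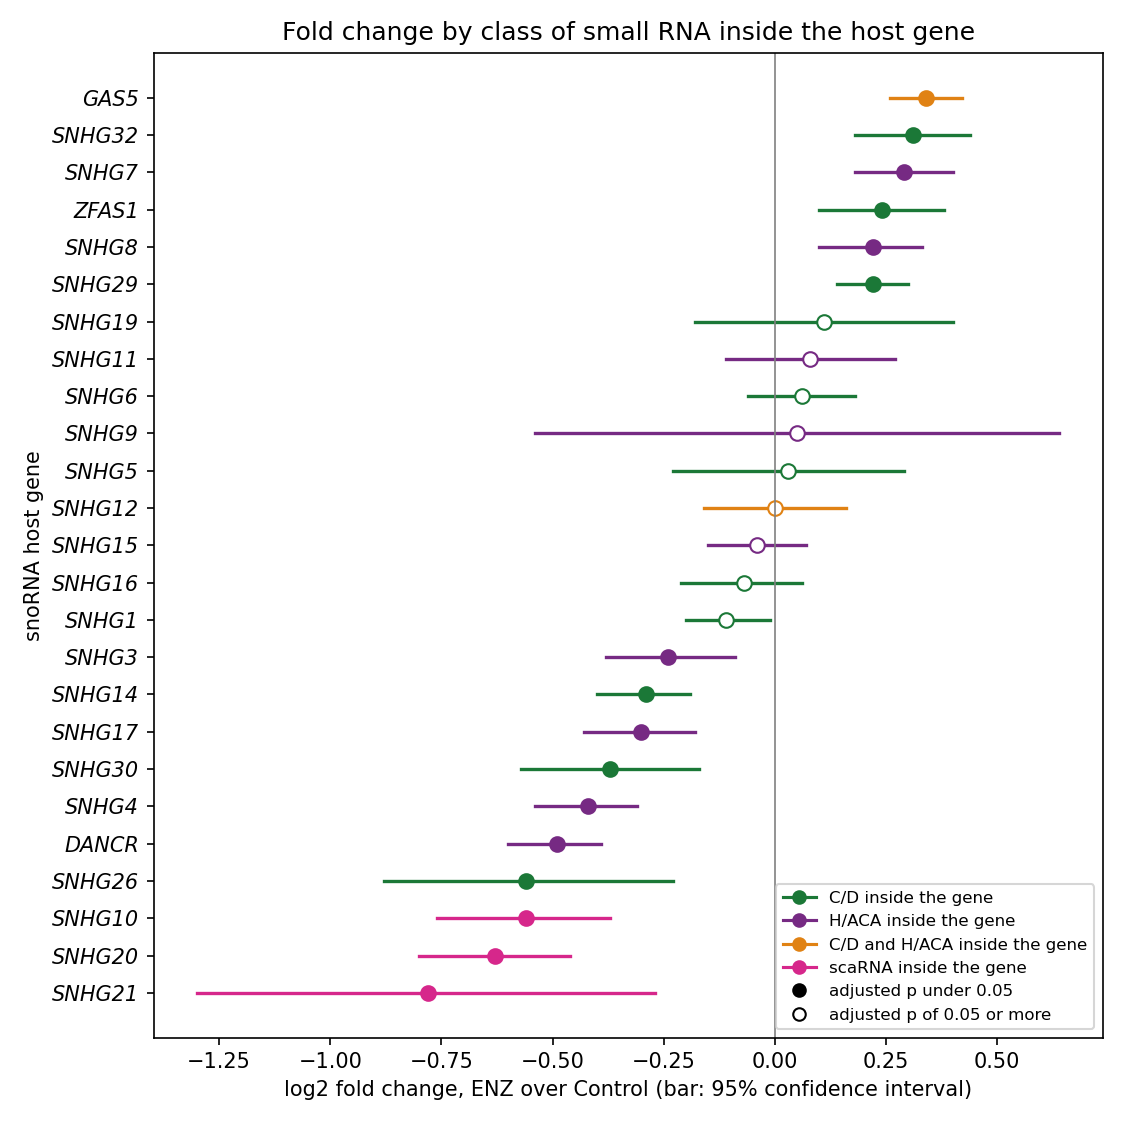
Log2 fold change of ENZ over Control for the 25 tested host genes with its 95% confidence interval, coloured by the class of small RNA annotated inside the gene (filled, adjusted p under 0.05; open, not called). The 3 scaRNA hosts SNHG10, SNHG20 and SNHG21 lie between -0.78 and -0.56, and C/D and H/ACA hosts lie on both sides of 0.

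The class of small RNA inside the gene was set beside the fold change, a comparison chosen after the values had been seen. Of 11 C/D hosts 3 were higher and 3 were lower in ENZ libraries, with a median log2 fold change of 0.03. Of 9 H/ACA hosts 2 were higher and 4 were lower, with a median of -0.04. Of the 2 hosts with both classes GAS5 was higher and SNHG12 was not called. All 3 tested scaRNA hosts, SNHG10, SNHG20 and SNHG21, were lower, with a median of -0.63, but the SNHG21 call was lost in 5 of the 18 alternatives. Over all genes tested 20.5% were higher and 19.3% were lower. Of 24 tested protein-coding genes that host a scaRNA, 3 were higher and 9 were lower, with a median of -0.04 and a range of -0.55 to 0.22, and the 1 other non-coding scaRNA host stood at 0.09. KHDC4, which also carries an H/ACA RNA, stood at -0.55 (adjusted p = 1.37e-08 in edgeR's test), close to SNHG10. The difference between classes was not tested. CEP295, which encodes a centriole protein, stood at -0.41 and SEC14L1 at 0.22. SEC14L1 shares exon sequence with SNHG20 on the same strand, and the pair was called in opposite directions. Over all 256 other tested host genes of any class, 81 were higher and 61 were lower (55.5% called), with a median of 0.04. Other hosts in this paragraph were counted when a small RNA lay within their span. A gene that overlaps an SNHG gene or DANCR can therefore be counted through the same small RNA, and such genes were not removed.

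TOP-like starts were found in hosts of either direction. Of the 6 tested hosts with a C and a run of at least 5 pyrimidines at the start, 2 were higher (SNHG32 and ZFAS1), 1 was lower (SNHG4) and 3 were not called. Of the 16 without, 4 were higher and 9 were lower, against 20.5% higher and 19.3% lower of all genes tested. Leaving out the 4 hosts whose RefSeq start lies outside the GENCODE span, 2 of 5 with the run were higher and 0 lower, and 3 of 13 without it were higher and 7 lower. SNHG4, the lower host with the run, was left out there although its start lies only 1 base outside the span. These counts are too few to compare. The E-box CACGTG, which reads the same on both strands and which MYC family factors can bind, was found in the promoters (250 bases before to 50 after the start) of SNHG7 and SNHG30, 2 of 22 tested hosts (9.09%), against 1218 of the 12135 promoters of all tested genes. SNHG7 was higher and SNHG30 was lower.

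The summed level of the 30 host genes was 1214, 1225 and 1265 CPM in ENZ libraries, against 1189, 1190 and 1192 CPM in Control libraries. The ENZ libraries were all a little higher, and the ratio of the means was 1.04, or 1.01 when library totals alone set the scale. GAS5, SNHG29 and SNHG14 made up 55.2% of the sum. Together these 3, of which GAS5 and SNHG29 were higher and SNHG14 was lower, summed to 706.6 ± 21.2 CPM in ENZ libraries and 631.1 ± 7.98 CPM in Control libraries (SD, n = 3 each). The other 27, among which SNHG7, SNHG32, ZFAS1 and SNHG8 were called higher, summed to 528.2 ± 6.2 CPM in ENZ libraries and 559.1 ± 6.85 CPM in Control libraries, a ratio of 0.945.

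Levels of different genes are compared per length, in the deposited FPKM values (fragments scaled to exon length and library total), which carry no TMM factors. GAS5 was highest with 63.1 ± 3.26 FPKM in ENZ libraries and 51.1 ± 0.617 FPKM in Control libraries, and SNHG29 followed with 33.1 ± 1.2 FPKM in ENZ libraries and 29.1 ± 0.746 FPKM in Control libraries (SD, n = 3 each). SNHG32 had 20.3 ± 1.03 FPKM in ENZ libraries and 16.7 ± 1.03 FPKM in Control libraries. SNHG6 had 18.3 ± 0.653 FPKM in ENZ libraries and 18.0 ± 1.23 FPKM in Control libraries. SNHG32 thus stood above SNHG6 in ENZ libraries and below it in Control libraries, where the gap was smaller than the sum of their SDs. SNHG1 came next with 13.9 ± 0.231 FPKM in ENZ libraries and 15.4 ± 0.434 FPKM in Control libraries. SNHG4 had 7.95 ± 0.37 FPKM in ENZ libraries and 10.9 ± 0.464 FPKM in Control libraries, below SNHG7 (12.3 ± 0.563 FPKM) in ENZ libraries and level with it (10.3 ± 0.328 FPKM) in Control libraries, where the gap was again smaller than the sum of their SDs. SNHG14 had 1.0 ± 0.0813 FPKM in ENZ libraries and 1.26 ± 0.057 FPKM in Control libraries, because its counts are spread over 122609 bases of exon. For most host genes the length behind the FPKM values equalled the union of all annotated exons, which can be longer than a single spliced form and so gives a lower value per length.

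The library kit does not record the strand, and many hosts overlap another gene. The share of exon sequence that lies in other genes was 72.9% for SNHG21, 62.4% for SNHG6, 43.1% for ZFAS1, 39.6% for SNHG8, 35.8% for SNHG7, 31.1% for SNHG16 and 29.1% for SNHG32. Of the 16 called hosts 14 share exon sequence with another tested gene. The partner with the largest overlap was called the same way for 1 host, the opposite way for 2 and was not called for 11. For DANCR it was LINC01618, at -1.37, and the antisense gene ERVMER34-1 was lower too (-0.39). ZNFX1, antisense to ZFAS1, was higher by the same log2 fold change of 0.24 (adjusted p = 0.000575 in edgeR's test). GLRX5, opposite SNHG10, stood at 0.00 and RCC1, which shares exon sequence with SNHG3, at 0.02. MCMDC2, whose exons cover 58.9% of those of SNHG6 on the other strand, was lower (-0.47, adjusted p = 0.00843 in edgeR's test). How far reads of a partner entered a host's count, or reads over shared exons were left out of it, was not tested.

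Rows named as snoRNAs give no reading of the mature RNAs, which lack a poly(A) tail. The 157 such rows summed to 17.59, 18.43 and 18.42 CPM in ENZ libraries, against 22.47, 22.08 and 23.18 CPM in Control libraries. All ENZ sums were below all Control sums. Of these rows 15 were tested and 3 were called, each lower: SNORD17 by -0.84, SNORA59B by -1.08 and SNORD19C by -1.57 on the log2 scale. Among all genes tested 39.8% were called and 19.3% were called lower, so 3 lower of 15 is near the share of the whole table. Only 13 of the 150 small RNAs inside the host genes had a row. SNORA71B, inside SNHG17, was the one tested, with a log2 fold change of -0.33 (adjusted p = 0.272 in edgeR's test). Outside SNHG14, 54 of 66 small RNAs overlap an annotated exon of their host. Whether reads there were counted to the host or left out of its count was not tested.

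**Figure D3:**
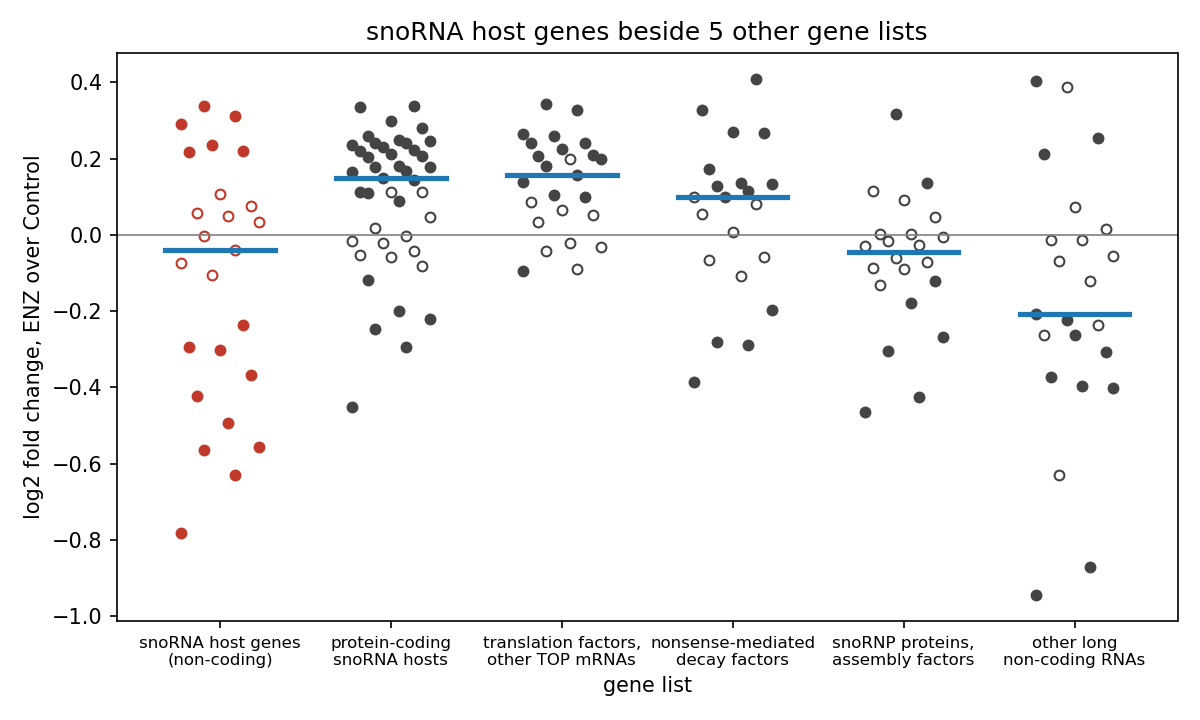
Log2 fold change of ENZ over Control for each tested gene of the snoRNA host list and of 5 other lists (filled, adjusted p under 0.05; open, not called; bar, median). The host genes spread on both sides of 0 around a median of -0.04. The 43 listed protein-coding hosts and the listed TOP mRNAs have medians of 0.15 and 0.16, and the listed other long non-coding RNAs one of -0.21.

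Genes that share a feature with the host genes were described by lists, which hold none of the 30. The shares to set beside them are those of all genes tested: 39.8% called, 20.5% higher and 19.3% lower. Of 43 protein-coding snoRNA hosts, largely ribosomal protein and translation factor genes, 26 were higher, 6 were lower and 11 were not called in ENZ libraries (74.4% called, median 0.15). These 43 do not stand for all protein-coding hosts. Of 118 found by annotation with C/D RNAs alone, 42 were higher and 26 lower (median 0.04). Of 95 with H/ACA RNAs alone, 30 were higher and 19 lower (median 0.05). RPL4, a large-subunit protein, averaged 2510 ± 76.2 CPM in ENZ libraries and 1990 ± 34.4 CPM in Control libraries (SD, n = 3 each), a log2 fold change of 0.33 (adjusted p = 2.91e-08 in edgeR's test). RPL13A stood at 0.30 and RPL13 at 0.34. The lower ones included EIF4G2, a translation initiation factor, at -0.29, nucleolin (NCL) at -0.22 and GNL3, a nucleolar GTPase, at -0.20. Of 25 translation factor and other TOP mRNAs, 5 of which are also in the list just described, 15 were higher and 1 was lower (64.0% called), with a median of 0.16. EEF1A1, the elongation factor that delivers aminoacyl-tRNA, stood at 0.34, EIF3L at 0.33 and IMPDH2, an enzyme of guanine nucleotide synthesis, at 0.27, while NPM1, nucleophosmin, stood at -0.10.

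Of 21 nonsense-mediated decay factors 10 were higher and 4 were lower (66.7% called, against 39.8% of all genes), with a median of 0.10. SMG5, which helps to dephosphorylate UPF1, averaged 270 ± 7.19 CPM in ENZ libraries and 203 ± 3.66 CPM in Control libraries (SD, n = 3 each), a log2 fold change of 0.41 (adjusted p = 1.03e-08 in edgeR's test). UPF1, the central helicase, stood at 0.27 and SMG9 at 0.33. SMG1, the kinase that phosphorylates UPF1, was lower at -0.39, as were MAGOHB, of the exon junction complex, at -0.28 and PNRC2 at -0.20. The 14 calls became 9 without ENZ replicate 2 or without Control replicate 1.

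Of 22 snoRNP proteins and assembly factors 2 were higher and 6 were lower (36.4% called, near the 39.8% of all genes), with a median of -0.05. NOP10, a core protein of H/ACA particles, stood at 0.32 and the ATPase RUVBL1 at 0.14, and TCOF1 (treacle) stood at -0.30, TGS1, the cap hypermethylase, at -0.27 and RPAP3, a cochaperone, at -0.43. The 8 calls became 4 without ENZ replicate 2 or without Control replicate 1. Of 23 other long non-coding RNAs 3 were higher and 9 were lower (52.2% called, against 39.8% of all genes), with a median of -0.21. EPB41L4A-AS1, itself a snoRNA host by annotation, stood at 0.40, PVT1 at 0.25 and MIR22HG at 0.21. KCNQ1OT1, the imprinted antisense RNA, averaged 3.38 ± 0.464 CPM in ENZ libraries and 6.53 ± 0.601 CPM in Control libraries (SD, n = 3 each), a log2 fold change of -0.95 (adjusted p = 4.57e-06 in edgeR's test). THAP9-AS1 stood at -0.40 and EBLN3P at -0.26.

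**Figure D4:**
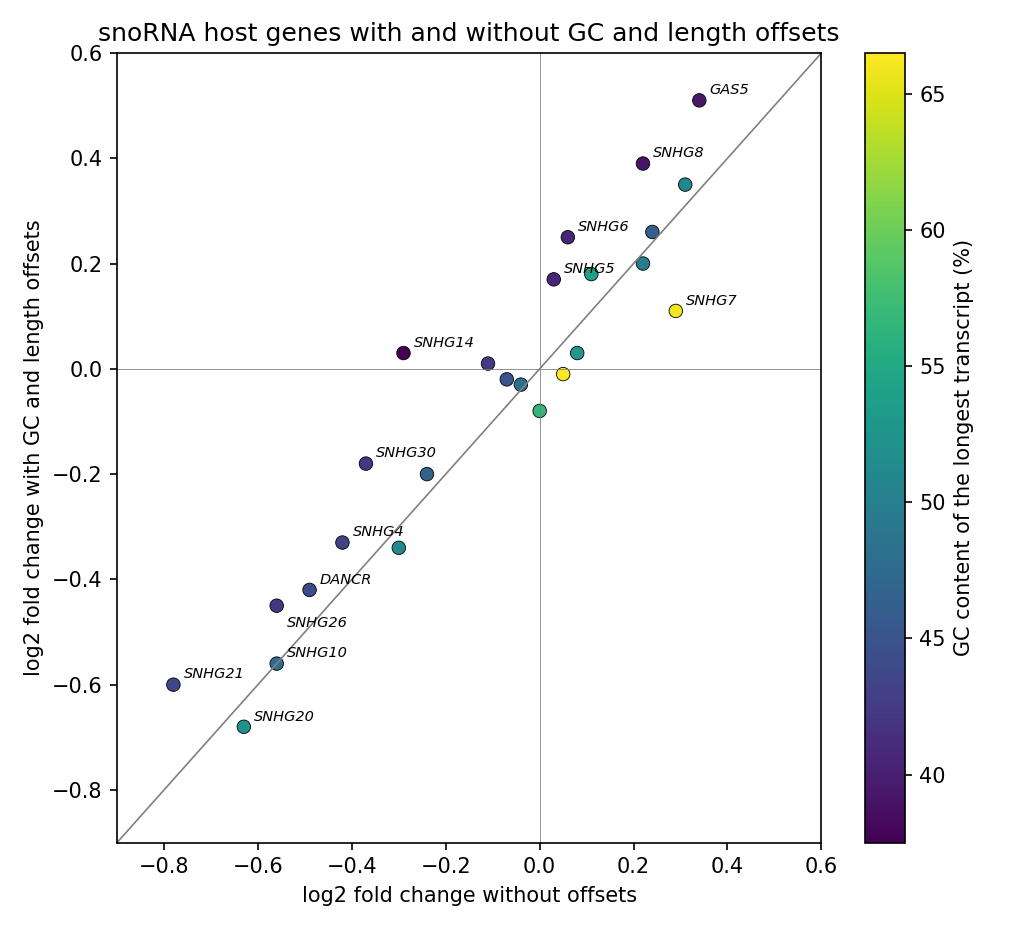
Log2 fold change of the 25 tested host genes without offsets (horizontal axis) and with offsets for GC content and length (vertical axis), coloured by GC content of the longest transcript, with the line of equal values. GC-poor hosts such as SNHG14 (37.5%), SNHG8 (39.0%), GAS5 (39.2%) and SNHG6 (40.4%) lie above the line and the GC-rich SNHG7 (65.9%) lies below it. GC content and length were fitted together, and SNHG14 also has the longest exon sequence of these genes.

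Fold changes moved with GC content across the table. Across 18538 genes, which are not independent replicates, Spearman's rho between GC content and log2 fold change was 0.34, and it was 0.15 across the 25 host genes, whose GC content ran from 37.5% to 66.5% with a median of 46.3%. The 10 lower hosts had a median of 43.8% and the 6 higher ones 47.9%. Offsets fitted to GC content and length gave log2 fold changes of 0.51 for GAS5, 0.35 for SNHG32, -0.56 for SNHG10, -0.68 for SNHG20, -0.42 for DANCR, -0.33 for SNHG4 and -0.34 for SNHG17, all called. The same offsets ended the calls of SNHG14, SNHG30 and SNHG21 and added SNHG6. Across the 25 hosts rho with fold change was 0.33 for mean CPM and 0.33 for the number of small RNAs inside the gene, and -0.07 for exon length, values that describe these genes only.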

How the data were processed

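Poly-T beads captured polyadenylated RNA, and cDNA made from random hexamers went into unstranded paired-end libraries, per the labels' protocols. Per the submitters' processing notes, the build was GRCh38 and the tools included DESeq2 1.20.0, HTSeq 0.6.1 and HISAT2 2.0.5. The sources used here do not state the annotation release or the strand setting. The authors deposited gene-level raw counts and, for the same genes, FPKM values (counts scaled to exon length and library total). The host genes and all other lists were chosen with earlier results of these data known.

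The groups were compared on the deposited counts with edgeR 4.0.16 (R 4.3.3): TMM factors, robust dispersions, the tool's own expression filter with default settings, the quasi-likelihood F test and Benjamini-Hochberg adjustment over all 18581 genes kept. Called means an adjusted p under 0.05. Overlap between the groups was read only for the genes and sums named, with no share over all genes to set beside it. SEs were obtained from the log2 fold change and the F statistic. Within a group, libraries differed by more than sampling noise (chi-square per degree of freedom 1.93 to 6.15). Limits from counts cover counting error only. Every tested host gene is named. Those called with a log2 fold change of at least 0.5 in size, and the 8 with the highest mean CPM, are given in every library, and from each other list up to 3 called genes with the smallest p per direction are named. Names beyond this rule (overlap partners, snoRNA rows, scaRNA hosts) were chosen after their values were seen. Positions come from GENCODE release 44, promoters and further snoRNA positions from RefSeq, and sequences are those of the reference genome.

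The 18 alternatives were DESeq2 1.42.0, limma-voom (limma 3.58.1), median-ratio factors, library totals alone, no filter, a minimum of 10 counts in 3 libraries, a block for the replicate number, log2(FPKM + 1) and log2(FPKM + 0.1) in limma for genes averaging 1 FPKM or more, unfiltered log2(FPKM + 1) in limma, offsets for GC content and length (natural splines, 4 degrees of freedom each) without and with the block, and each library left out in turn.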

Additional observations from a re-analysis of the deposited data

How the results depend on the processing

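Among the 16 called host genes, 9 kept their call and direction under all 18 alternatives: GAS5, SNHG32, SNHG7 and SNHG29 (higher) and SNHG20, SNHG10, DANCR, SNHG4 and SNHG17 (lower). Leaving out a library gave 15 to 17 called host genes, 9 to 11 of them lower, and 5844 to 8258 called genes in all. Limma on log2(FPKM + 1) without a filter, which tests 36593 genes, called 10 host genes (6 lower) and 3728 genes in all (1723 higher, 2005 lower), and with a mean of at least 1 FPKM 2526 genes were higher with a pseudocount of 1 and 2520 with 0.1. The unfiltered FPKM setting also left 20 protein-coding hosts, 10 TOP mRNAs, 6 decay factors, 3 snoRNP factors and 4 other long non-coding RNAs called, and both filtered FPKM settings left 6 of the last. Leaving out a library gave 9 to 14 decay factors and 4 to 10 snoRNP factors. The cause of these differences between settings was not tested. Library totals alone moved the median log2 fold change of all genes to -0.041, and GC and length offsets to 0.034.

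The direction reversed for SNHG14 (0.03) and SNHG1 (0.01) with GC and length offsets, with and without the replicate block. Among host genes close to 0, SNHG12 gave 0.00 without a filter and -0.07 to 0.06 with a library left out, SNHG5 gave 0.00 with library totals alone and on unfiltered log2(FPKM + 1), and -0.01 to 0.12 with a library left out, and SNHG9 gave 0.00 on log2(FPKM + 0.1), -0.01 with offsets, -0.02 with offsets and the block, and -0.12 to 0.18 with a library left out. SNHG19 gave -0.01 to 0.23 with a library left out.

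The replicate numbers did not pair the libraries: deviations of same-numbered ENZ and Control libraries correlated at 0.018, -0.012 and -0.046, and not every library correlated best with its own number. With the replicate block 7466 genes were called, and the host genes stayed at 6 higher and 10 lower. At 17 to 28 counts per library, as for SNHG9, depth limits what can be seen.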
